A study of Mus musculus with 8 samples.

Results

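The 10 genes described here mark the early stages of the oligodendrocyte lineage in the mouse brain. They were taken by symbol from a fixed list: Pdgfra, Cspg4, Olig1, Olig2, C1ql1 and Lhfpl3 for oligodendrocyte precursors, and Neu4, Gpr17, Bmp4 and Enpp6 for newly differentiating oligodendrocytes. All 10 were found among the 55487 genes of the deposited tables, and all 10 passed the filter on low counts that left 17339 genes for testing. RNA came from the dorsomedial hypothalamus (DMH), a brain region with a part in food intake and wakefulness, and 8 libraries were sequenced. In 4 of them (group shfLuc, genotype label fLuc knockdown) the hairpin RNA was directed against firefly luciferase, a control target that mice lack. In the other 4 (group shPpp1r17, genotype label Ppp1r17 knockdown) it was directed against Ppp1r17, which encodes an inhibitor of protein phosphatases. The labels give no age, sex, strain, promoter or route of delivery for either hairpin, so the cells that carried it are not known here. Nothing in them ties a library to an animal of its own, so p-values cover only the variation among these 8 libraries, and part of that may be technical.

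Oligodendrocyte precursors are dividing glial cells spread through the adult brain, and they depend on platelet-derived growth factor acting through the receptor PDGFRA. Those that leave the cell cycle pass through a short premyelinating stage, marked by GPR17 and ENPP6, before they make myelin. OLIG1 and OLIG2 are basic helix-loop-helix transcription factors kept through the whole lineage, and bone morphogenetic proteins such as BMP4 hold precursors back from differentiation. In bulk tissue, fewer cells of a type and less RNA per cell cannot be told apart.

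The libraries held 23070147 to 33907984 estimated reads. Ppp1r17 stood at 147 to 171 CPM (read counts scaled to a common library size) in shfLuc, at 87.7 and 87.2 CPM in shPpp1r17 libraries 1 and 4, and at 2.07 and 3.10 CPM in shPpp1r17 libraries 2 and 3 (exact two-sided permutation p = 0.0286, the smallest that 4 against 4 libraries allow). In edgeR its adjusted p was 0.197, so the targeted gene itself was not called. Libraries 2 and 3 of shPpp1r17 also stood apart from the other 2 on the first principal component, and calls made with all 8 libraries are therefore also given without them. Of 10 DMH marker genes 9 were measured, and their summed level was 558 to 644 CPM in shfLuc and 305 to 550.2 CPM in shPpp1r17. That list holds Ppp1r17 itself, and the other 8 genes summed to 397 to 497 CPM and 302 to 463 CPM, so that the groups overlapped. Pdyn led this sum, with means of 229 and 228 CPM. Log2 fold changes were below 0 for 7 of the 9 markers and above 0 for 2. The groups did not overlap for 3 of them, against 13.9% of all genes tested. These were Ppp1r17, Brs3 (log2 fold change -1.18, adjusted p = 0.091) and Hmx2 (-0.50, adjusted p = 0.133). Of the 9 markers edgeR called 0 with all 8 libraries, and 1 as lower without shPpp1r17 libraries 2 and 3.

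Of the 10 lineage genes, Enpp6 was higher and Lhfpl3 lower in shPpp1r17, and the other 8 did not pass the threshold of 0.05 on the adjusted p (quasi-likelihood test of edgeR). By this test 6.06% of all 17339 genes passed, 3.39% of them as higher and 2.66% as lower. The median log2 fold change of the 10 genes was 0.18 against 0.00 over all genes tested, with 8 above 0 and 2 below. With shPpp1r17 libraries 2 and 3 left out, a setting added once the values were known, none of the 10 passed in edgeR, and their median log2 fold change was 0.04. That smaller comparison called 0.205% of all genes. At an unadjusted p under 0.05, 2 of the 10 were then higher and 1 lower, against 12.8% of all genes in either direction. The groups did not overlap in CPM for 2 of the 10, Olig1 and Enpp6, both higher in shPpp1r17, and for 13.9% of all genes tested (7.12% higher, 6.74% lower).

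Other settings called other shares of all genes. DESeq2 called 11.1%, voom with quality weights 10.2%, effective length offsets 5.06%, limma on log2(TPM + 1) 5.59% and on log2(TPM + 0.1) 5.81%, and the replicate block 4.19%. With shfLuc libraries 1 to 4 left out in turn edgeR called 5.82%, 0%, 0% and 1.62%, where the settings with no call had 3309 and 3146 genes at an unadjusted p under 0.05, and with shPpp1r17 libraries 1 to 4 left out it was 8.07%, 1.75%, 1.11% and 8.73%. Calls for single lineage genes under these settings are to be read against these shares.

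**Figure D1:**
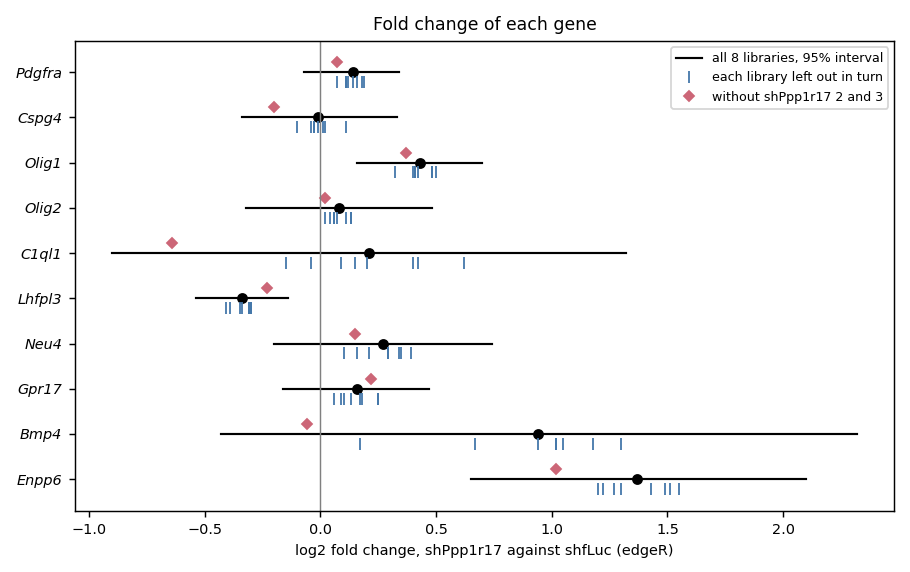
Log2 fold change of each gene, shPpp1r17 against shfLuc, from edgeR. Black points and lines are the estimate and its 95% interval over all 8 libraries, blue ticks the estimates with each library left out in turn, and red diamonds those without shPpp1r17 libraries 2 and 3. The intervals of Enpp6 (0.65 to 2.10), Olig1 (0.16 to 0.70) and Lhfpl3 (-0.54 to -0.14) lie to one side of 0, while that of Bmp4 (-0.43 to 2.32) is the widest.

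Pdgfra encodes the receptor through which precursors receive platelet-derived growth factor. It stood at 33.6, 31.4, 31.4 and 36.2 CPM in shfLuc libraries 1 to 4 and at 32.3, 34.7, 41.2 and 37.5 CPM in shPpp1r17 libraries 1 to 4. Libraries 3 and 4 of shPpp1r17 lay above every shfLuc library, and libraries 1 and 2 lay among them. The group means were 33.2 ± 2.26 and 36.4 ± 3.85 CPM (SD, n = 4 libraries each), and the log2 fold change was 0.14 (95% interval -0.07 to 0.34, adjusted p = 0.429). On the fold scale this interval ran from 0.955 to 1.26.

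Cspg4 encodes the NG2 proteoglycan, a surface marker that precursors share with pericytes. Its levels were 9.25, 10.1, 10.3 and 9.32 CPM in shfLuc and 7.15, 11.5, 10.3 and 9.88 CPM in shPpp1r17. The lowest and the highest of the 8 values were both in shPpp1r17, in libraries 1 and 2, and the group means were alike at 9.75 ± 0.55 and 9.71 ± 1.84 CPM (SD, n = 4). The log2 fold change was -0.01 (95% interval -0.34 to 0.33, adjusted p = 0.988), and it was 0.03 with effective length offsets.

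Since Pdgfra is also made by perivascular fibroblasts and Cspg4 by pericytes, markers of both cell types were measured beside them. The 9 pericyte markers summed to 123 to 138 CPM in shfLuc and 129 to 185 CPM in shPpp1r17, and none passed the test. Of 9 fibroblast markers 8 were measured and 1 passed, Dcn, a matrix proteoglycan, at a log2 fold change of 0.89, or 0.50 (adjusted p = 0.16) without shPpp1r17 libraries 2 and 3. They summed to 31.6 to 37.2 CPM in shfLuc and 38.7 to 65.3 CPM in shPpp1r17, with the highest sum in library 2. Their part in the Pdgfra and Cspg4 values was not tested.

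Olig1 had the highest log2 fold change of the 6 precursor genes. It stood at 18.4, 16.3, 15.6 and 15.8 CPM in shfLuc and at 19.8, 19, 27.1 and 23 CPM in shPpp1r17. All 4 shPpp1r17 libraries lay above all 4 shfLuc libraries, by a small margin in libraries 1 and 2 and a wider one in libraries 3 and 4. The means were 16.5 ± 1.29 and 22.2 ± 3.65 CPM (SD, n = 4), a log2 fold change of 0.43 (SE 0.12, 95% interval 0.16 to 0.70). Its adjusted p of 0.0595 in edgeR missed the threshold, although DESeq2 (adjusted p = 0.0203) and voom with quality weights (limma, adjusted p = 0.0408) called it. It was not called by voom without weights (adjusted p = 0.0754) or by limma on log2(TPM + 1) (adjusted p = 0.0981). Nor did edgeR call it with effective length offsets (adjusted p = 0.0666) or the replicate block (adjusted p = 0.105). The log2 fold change was 0.37 (adjusted p = 0.247) without shPpp1r17 libraries 2 and 3. Permuting the 4 against 4 libraries exactly gave an unadjusted two-sided p of 0.0286. Any gene whose groups do not overlap in CPM gets this value, as 13.9% of all genes tested did, so it restates the separation.

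Olig2, a neighbour of Olig1 on chromosome 16, encodes the other factor of the pair. It was at 4.02, 4.60, 3.63 and 4.44 CPM in shfLuc and at 4.57, 4.49, 4.67 and 3.91 CPM in shPpp1r17. The lowest value was in shfLuc library 3 and the highest in shPpp1r17 library 3, the groups overlapped, and the log2 fold change was 0.08 (95% interval -0.32 to 0.48, adjusted p = 0.851). The interval of Olig2 contains the estimate of Olig1, and a difference between the 2 genes was not tested.

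C1ql1 encodes a secreted C1q-like protein that precursors make and that some neurons also release at synapses. It was rare, with 8, 17, 19 and 37 reads in shfLuc and 14, 31, 44 and 18 reads in shPpp1r17. These are levels of 0.346 to 1.46 CPM and 0.529 to 1.61 CPM, so the groups overlapped almost fully. The log2 fold change of 0.21 had a 95% interval from -0.90 to 1.32 (adjusted p = 0.855). On the fold scale the interval ran from 0.536 to 2.5, so neither a rise nor a fall within it could be told from no change. The CV between libraries was 55.2% in shfLuc and 54.3% in shPpp1r17, above the counting error of 35.4% at its fewest reads.

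Lhfpl3, a tetraspan membrane protein gene used as a precursor marker in single-cell atlases, was the gene of the list that fell. It stood at 81.9, 97.2, 99.4 and 90.2 CPM in shfLuc and at 83.6, 67.8, 66.7 and 73.6 CPM in shPpp1r17. Libraries 2, 3 and 4 of shPpp1r17 lay below every shfLuc library, while library 1 lay above shfLuc library 1. The means were 92.2 ± 7.87 and 72.9 ± 7.74 CPM (SD, n = 4), a fold of 0.791 and a log2 fold change of -0.34 (SE 0.09, adjusted p = 0.0473). The exact two-sided permutation test on the 4 against 4 libraries gave p = 0.0571. The call was lost without shfLuc 2, 3 or 4 and without shPpp1r17 2, 3 or 4, with adjusted p over the single omissions from 0.0187 to 0.147, and the log2 fold change stayed between -0.41 and -0.30. Without shPpp1r17 libraries 2 and 3 it was -0.23 (adjusted p = 0.353), and with the replicate number as a block the adjusted p was 0.101.

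**Figure D2:**
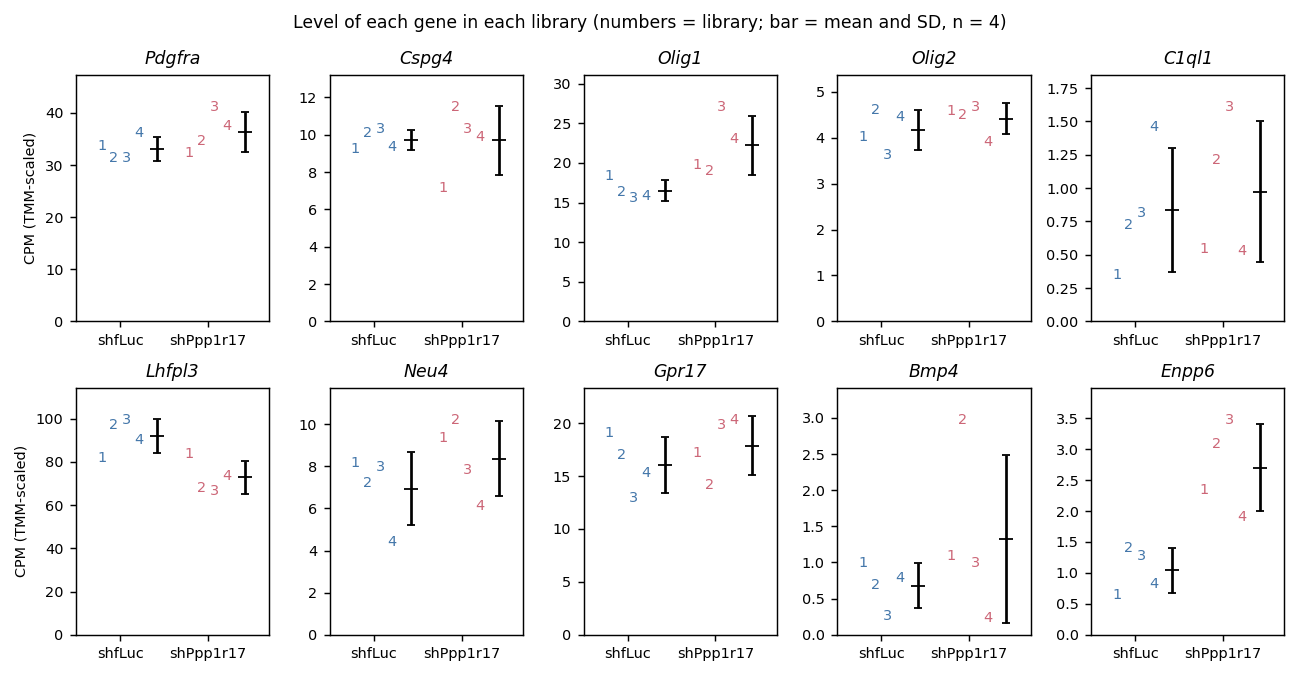
CPM of each gene (vertical axis, from 0) in the 4 shfLuc (blue) and 4 shPpp1r17 (red) libraries. Each number is 1 library and the bar beside it is the mean with its SD. Enpp6 and Olig1 show no overlap of the groups, Lhfpl3 overlaps only through shPpp1r17 library 1 (83.6 CPM) and shfLuc library 1 (81.9 CPM), and Bmp4 is high only in shPpp1r17 library 2 (2.97 CPM).

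Gpr17 encodes a G protein-coupled receptor of committed precursors and premyelinating cells. Its levels were 19.1, 17, 12.9 and 15.3 CPM in shfLuc and 17.2, 14.2, 19.8 and 20.3 CPM in shPpp1r17. Libraries 3 and 4 of shPpp1r17 were the highest, and library 2 lay below 3 of the shfLuc libraries. The log2 fold change was 0.16 (95% interval -0.16 to 0.47, adjusted p = 0.578). Gpr17 overlaps Lims2 on the opposite strand, and whether the counting used strand is not given in the sources used here, so reads of the 2 genes may be mixed. Lims2 itself had a log2 fold change of 0.28 (SE 0.14, adjusted p = 0.243).

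Neu4 encodes a sialidase, an enzyme that removes sialic acid from glycans. It was at 8.17, 7.20, 7.99 and 4.4 CPM in shfLuc and at 9.34, 10.2, 7.82 and 6.11 CPM in shPpp1r17. Library 4 was the lowest of both groups, libraries 1 and 2 of shPpp1r17 lay above every shfLuc library, and the groups overlapped. The log2 fold change was 0.27 (95% interval -0.20 to 0.74, adjusted p = 0.514).

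Bmp4 encodes the secreted ligand that restrains oligodendrocyte differentiation. It had 23, 16, 6 and 20 reads in shfLuc and 28, 76, 27 and 8 reads in shPpp1r17. Most of the difference came from shPpp1r17 library 2 at 2.97 CPM, while the other shPpp1r17 libraries ran from 0.235 to 1.09 CPM, against 0.256 to 0.994 CPM in shfLuc. The log2 fold change was 0.94 (95% interval -0.43 to 2.32, adjusted p = 0.419). It was 0.17 without shPpp1r17 library 2 and -0.06 without libraries 2 and 3.

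Enpp6 encodes a choline-specific phosphodiesterase of newly forming oligodendrocytes and had the largest increase of the 10 genes. It had 15, 33, 30 and 21 reads in shfLuc and 60, 79, 95 and 65 reads in shPpp1r17. As levels these were 0.648, 1.41, 1.28 and 0.826 CPM against 2.34, 3.08, 3.47 and 1.91 CPM. Every shPpp1r17 library lay above every shfLuc library, with libraries 2 and 3 the highest and library 4 the nearest to the controls. The means were 1.04 ± 0.361 and 2.70 ± 0.705 CPM (SD, n = 4), a 2.59-fold difference and a log2 fold change of 1.37 (SE 0.34, 95% interval 0.65 to 2.10, adjusted p = 0.0325). The exact two-sided permutation test on the 4 against 4 libraries gave an unadjusted p = 0.0286, which here too restates that the groups did not overlap.

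With so few reads, counting alone gives Enpp6 a relative error of 25.8% in its shallowest library. With each library left out in turn the log2 fold change ran from 1.2 to 1.55, and the adjusted p from 0.0205 to 0.117. The call was lost without any of the 4 shfLuc libraries and without shPpp1r17 2 or 3. Without both of these it was 1.02 (adjusted p = 0.339). In TPM, which is scaled to gene length, the groups also stayed apart, at 0.257 to 0.59 TPM in shfLuc and 0.722 to 1.28 TPM in shPpp1r17. The share of all genes that stayed apart in TPM was not computed.

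Levels of different genes were compared per length, in TPM. In shfLuc the order ran from Lhfpl3 (45.9 ± 5.28 TPM) over Olig1 (15.1 ± 0.744), Pdgfra (6.89 ± 0.444), Gpr17 (4.24 ± 0.583), Cspg4 (4.17 ± 0.275), Olig2 (3.12 ± 0.31) and Neu4 (2.40 ± 0.738 TPM; SD, n = 4) down to the 3 rarest. These were C1ql1 (1.40 ± 0.788), Bmp4 (0.542 ± 0.24) and Enpp6 (0.416 ± 0.143 TPM; SD, n = 4). The first 3 genes were apart from each other and from Gpr17 in every library of both groups, and below them 5 neighbouring pairs in shfLuc and 6 in shPpp1r17 overlapped. The order was the same in shPpp1r17, with Lhfpl3 at 34.1 ± 3.63, Olig1 at 19.4 ± 3.07 and Enpp6 at 0.916 ± 0.263 TPM (SD, n = 4). Lhfpl3 had a TPM 0.743 times that of shfLuc and did not overlap between groups on this scale. The gap was narrow, with 39.4 TPM in shPpp1r17 library 1 and 39.8 TPM in shfLuc library 1, and in CPM the groups overlapped. As for Enpp6, the share of all genes apart in TPM was not computed. On log2(TPM + 1) the median log2 fold change over all genes tested was -0.07, against 0.00 in the main comparison.

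**Figure D3:**
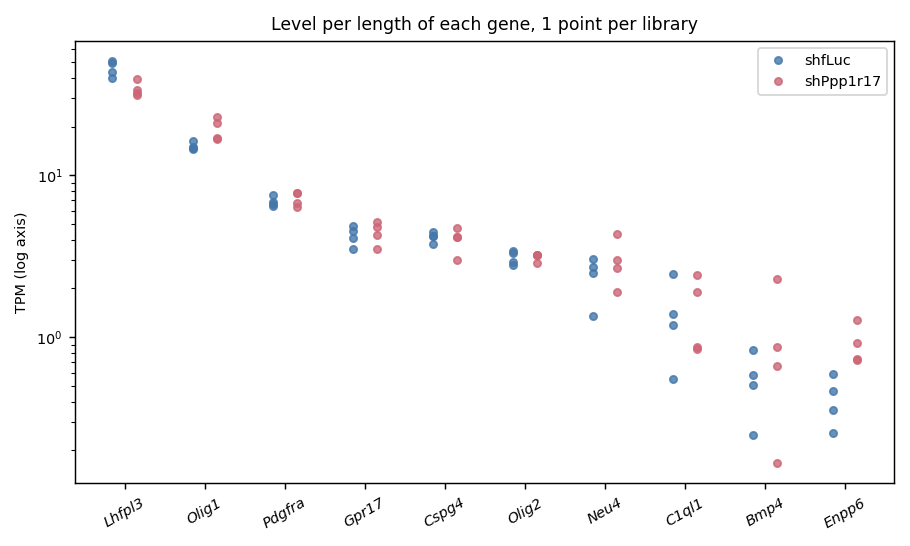
TPM of each gene (log axis) in the 4 shfLuc (blue) and 4 shPpp1r17 (red) libraries, 1 point per library, ordered by the shfLuc mean. Lhfpl3, Olig1 and Pdgfra form a descending series with no overlap, and the points of Gpr17 and Cspg4 overlap, as do those of C1ql1, Bmp4 and Enpp6 with their neighbours.

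The deposited tables give each gene a length for each library, which moves when the estimated mix of its transcripts moves. It was fixed for Olig1, Olig2, C1ql1 and Gpr17, and varied by 2.74% of its mean for Lhfpl3, 6.71% for Pdgfra and 6.82% for Cspg4. For Enpp6 it ran from 2481 to 4289 bases in shfLuc and from 3371 to 4305 bases in shPpp1r17, a range of 49.8% of the mean. For Neu4 it ran from 3782 to 4511 and from 3157 to 4260 bases. The groups overlapped in length for every gene. With the effective length of each library as an offset, the log2 fold change of Enpp6 was 1.23 (adjusted p = 0.0602) and that of Lhfpl3 -0.34 (adjusted p = 0.0579), so neither passed.

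In the GRCm38 annotation (GENCODE M21), whose build may differ from the authors', Enpp6 lies at chr8:46986887-47096762 on the plus strand and Lhfpl3 at chr5:22746059-23275597 on the plus strand. Olig2 and Olig1 lie at chr16:91225457-91228677 and chr16:91269772-91271933. Gene models on the opposite strand overlap these 3 (Enpp6, Lhfpl3 and Olig1) and also Pdgfra, C1ql1, Gpr17 and Bmp4, and reads of such pairs cannot be told apart without strand. Models on the same strand overlap Lhfpl3 (6030443J06Rik and Gm21846) and Pdgfra (Mir7025), and strand alone would not separate reads shared with these. The 250 bases before the start of the 2 genes that passed are given from RefSeq (GRCm38.p6), where 7 of the 10 genes had an entry. Capitals mark the E-box CANNTG, the motif class that OLIG1 and OLIG2 recognise, which reads the same class on both strands. Lhfpl3 (chr5:22745804-22746053, plus strand) and Enpp6 (chr8:46986637-46986886, plus strand) read, 5′ to 3′:
Lhfpl3: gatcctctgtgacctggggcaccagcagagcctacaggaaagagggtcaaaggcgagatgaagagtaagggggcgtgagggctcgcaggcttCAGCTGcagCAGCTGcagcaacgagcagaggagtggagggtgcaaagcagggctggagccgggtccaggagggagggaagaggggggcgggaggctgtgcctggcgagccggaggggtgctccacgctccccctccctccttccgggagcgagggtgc
Enpp6: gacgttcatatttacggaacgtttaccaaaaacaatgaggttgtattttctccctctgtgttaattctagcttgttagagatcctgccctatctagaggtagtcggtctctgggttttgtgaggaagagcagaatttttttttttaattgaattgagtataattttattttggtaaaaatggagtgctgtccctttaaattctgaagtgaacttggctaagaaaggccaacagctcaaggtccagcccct

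The Lhfpl3 window held 2 E-boxes, both of the form CAGCTG and 3 bases apart, and the Enpp6 window held none. Among the other genes with an entry, Bmp4 held 3, Pdgfra and Neu4 held 1 each, and Cspg4 and Olig2 held none. Of 32851 RefSeq promoter windows of the same length 66.2% held an E-box and 13.0% held CAGCTG. Neither the Lhfpl3 nor the Enpp6 window held the 6-base SOX-type motif ACAAAG or its reverse complement CTTTGT, which 16.5% of all windows held.

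An 8-base motif, CTCTGATA, was picked earlier from the fold changes of these same libraries, so its matches in 3′ UTRs are a description and no independent evidence. Matches of 8 bases, or of its first or last 7 (CTCTGAT or TCTGATA), were read on the transcript strand. In 3′ UTRs of at least 50 bases, 18.7% of 14261 tested genes held one and 2.72% held all 8 bases. Of the 10 lineage genes Lhfpl3, Neu4, Gpr17 and Enpp6 held a match. The sites are printed in 30 bases, with the match in capitals, because Lhfpl3, which was lower, and Neu4 and Enpp6, which were not, can be compared in them. They lie at chr5:23273846-23273852 (Lhfpl3), chr1:94027346-94027353 (Neu4, its longest match) and chr8:47094065-47094071 (Enpp6), all on the plus strand of GRCm38:
Lhfpl3: ttgaggaatgcCTCTGATccttgatccctc
Neu4: gaggatccaacCTCTGATAtaccatgtcag
Enpp6: caaggcacatgTCTGATAtgtcagtgaagg

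Lhfpl3 held a single match, of 7 bases. Neu4 held 3, among them the single 8-base match of the list, and its log2 fold change was 0.27. Enpp6, the gene with the largest increase, held 1 match of 7 bases. Pdgfra, Cspg4, Olig1, Olig2, C1ql1 and Bmp4 held none in the 3′ UTR searched.

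Other genes of the same stages gave few calls in edgeR, and the number of rises changed with the tool. Of 20 further precursor genes 19 were measured, 0 rose and 2 fell: Ptprz1, a receptor phosphatase (-0.28, SE 0.07, adjusted p = 0.0307), and Sema5a, a guidance protein (-0.42, SE 0.09, adjusted p = 0.0220). Rlbp1, a retinoid-binding protein, was just outside the threshold at 0.78 (SE 0.22, adjusted p = 0.0509). The median log2 fold change of the 19 was 0.00, as over all genes, with 10 above 0 and 9 below. Their sum was 818 to 853 CPM in shfLuc and 781 to 804 CPM in shPpp1r17, without overlap. Ptprz1 led this sum, at 252 ± 10.3 and 207 ± 12.4 CPM (SD, n = 4). Of 20 further genes of committed precursors and newly formed oligodendrocytes 19 were measured, and 1 fell: Pik3r3, a regulatory subunit of phosphoinositide 3-kinase (-0.35, SE 0.08). Bcas1, a marker of early myelinating cells, stood at 0.52 (SE 0.15, adjusted p = 0.0578) and Sirt2, a deacetylase of oligodendrocytes, at 0.29 (SE 0.09, adjusted p = 0.0664), and the median was 0.03. DESeq2 called 2 higher and 2 lower in the first of these lists and 2 higher and 1 lower in the second. With the replicate block the second list had no call and the first kept 1, Sema5a. With effective length offsets the call of Ptprz1 was lost (adjusted p = 0.0591).

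Of 18 transcription factors of the lineage, St18 fell (-0.73, SE 0.14, adjusted p = 0.0141), from 42.4 ± 6.52 to 25.6 ± 4.85 CPM (SD, n = 4). Of the 7 genes called lower in the companion lists 5 held a match to the motif above, among them St18 with all 8 bases, and Ptprz1 and Mcm5 held none. The share with a match was 20.7% of the companion genes not called lower and 18.7% of all tested genes. Since the motif was picked from the fold changes of these same libraries, this difference is no evidence for it. UTR length was not taken into account. Sox5 (-0.27, adjusted p = 0.167) and Nkx6-2 (-0.56, adjusted p = 0.173) were next by p and did not pass, and the median was 0.00. After them came Sox10, which was higher at 0.45 (adjusted p = 0.204), and of the 18 factors 9 were above 0 and 9 below. Without shPpp1r17 libraries 2 and 3 no gene of these 3 lists passed in edgeR, with Ptprz1 at -0.28, Sema5a at -0.28, Pik3r3 at -0.29 and St18 at -0.52 (adjusted p 0.155 to 0.245).

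The ligands and receptors around Pdgfra and Bmp4 gave 1 call. Among 5 other PDGF genes none passed: Pdgfrb was at -0.24 (adjusted p = 0.495), Pdgfd at -0.12 (adjusted p = 0.734) and Pdgfb at -0.14 (adjusted p = 0.791). Of 24 BMP pathway genes 22 were measured, and Bmpr1a, a type I receptor for BMP4, fell by 0.60 on the log2 scale (SE 0.09, adjusted p = 0.01), from 47.8 ± 1.54 to 31.5 ± 3.95 CPM (SD, n = 4). It was at -0.48 (adjusted p = 0.0938) without shPpp1r17 libraries 2 and 3 and did not pass. The ligand Bmp7 (0.73, adjusted p = 0.133) and the BMP target Id3 (0.37, adjusted p = 0.0898) did not pass, and the median of the list was 0.05.

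Relatives of the other genes were also measured. Of 8 sialidase and ENPP family genes none passed, with Enpp1 at -0.69 (adjusted p = 0.196), Enpp2 at 0.24 (adjusted p = 0.257) and Enpp4 at -0.17 (adjusted p = 0.298). Of 8 C1q-like and LHFPL family genes 6 were measured and Lhfpl4, a GABA-A receptor partner at inhibitory synapses, fell (-0.34, SE 0.09, adjusted p = 0.0368). C1ql3 (-0.29) and Lhfpl5 (-0.08) did not pass. Of 14 cell division genes 9 were measured, Ccnd2, a D-type cyclin, rose (0.46, SE 0.12) and Mcm5, a replication helicase subunit, fell (-1.54, SE 0.35). Mcm5 was rare, at 1.65 ± 0.222 and 0.562 ± 0.129 CPM (SD, n = 4), and Birc5, a mitotic gene, was at -1.0 (adjusted p = 0.431). Without shPpp1r17 libraries 2 and 3 none of the 3 called here passed, with Lhfpl4 at -0.25 (adjusted p = 0.288), Ccnd2 at 0.24 (adjusted p = 0.365) and Mcm5 at -1.50 (adjusted p = 0.185). With effective length offsets the calls of Ccnd2 and Mcm5 were lost, and with the replicate block those of Lhfpl4 and Mcm5.

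Mature myelin genes stood beside the early genes as the next stage of the lineage. Of 18 genes 17 were measured, 4 rose and all 17 were above 0, with a median log2 fold change of 0.60. Over all 17339 genes 3.39% were called higher and 8769 were above 0. Cldn11, a tight junction protein of myelin, was at 1.02 (SE 0.20), Mobp, a myelin structural protein, at 0.79 (SE 0.18), and Ermn, a cytoskeletal protein of oligodendrocytes, at 0.60 (SE 0.16). Summed myelin transcripts were 109%, 171%, 178% and 102% of the shfLuc mean in shPpp1r17 libraries 1 to 4, with the higher sums in libraries 2 and 3. The 6 precursor genes summed to 94.5%, 88.6%, 96.8% and 94.8% in the same libraries, and the 4 newly formed genes to 121%, 123%, 129.5% and 116%. The latter sum overlapped with shfLuc through shfLuc library 1 at 117%. Both sums are led by their most abundant genes, Lhfpl3 in the first and Gpr17 in the second. In log2 units from the shfLuc mean, the 6 precursor genes had medians of -0.09, 0.16, 0.24 and -0.03 in shPpp1r17 libraries 1 to 4. In libraries 2 and 3 the precursor sum was thus below the shfLuc mean and the precursor median above it. Without shPpp1r17 libraries 2 and 3 the myelin median was 0.17 and no myelin gene passed. With effective length offsets, and also with the replicate block, the calls of Ermn and Ugt8a were lost and those of Cldn11 and Mobp stayed. A difference between the early and the mature genes was not tested.

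**Figure D4:**
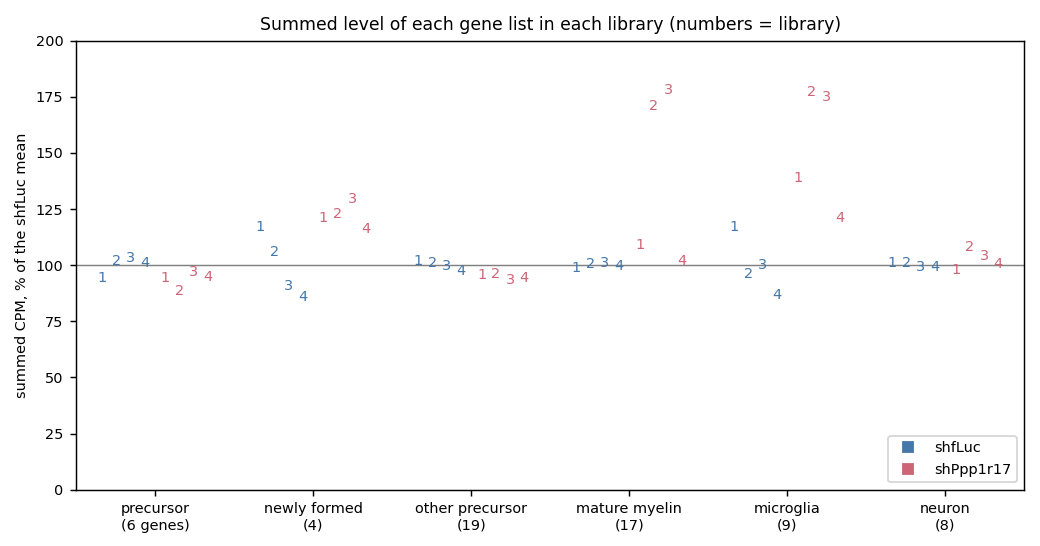
Summed CPM of each gene list as a percent of its shfLuc mean (vertical axis, from 0), with each number marking 1 library of shfLuc (blue) or shPpp1r17 (red). Myelin and microglial sums are high in shPpp1r17 libraries 2 and 3 (171% and 178%, 177% and 175%), where the precursor sums are 88.6% and 96.8%. The precursor sum is led by Lhfpl3, and the median precursor gene lay above the shfLuc mean in libraries 2 and 3 (log2 0.16 and 0.24).

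Markers of other cells also differed between the groups. Of 9 microglial genes 4 rose, with C1qa at 0.97 and C1qb at 1.0, and the sum of the 9 was 285 to 384 CPM in shfLuc and 397 to 583 CPM in shPpp1r17. Of 8 endothelial genes Ly6c1 rose (0.84), with Pecam1 at 0.42 and Slco1a4 at 0.21, and the sum was 128 to 155 CPM in shfLuc and 138 to 227 CPM in shPpp1r17. All 5 blood genes rose, Hbb-bs by 0.99, Hba-a1 by 0.93 and Hbb-bt by 1.25, from sums of 328 to 567 CPM to 638 to 1231 CPM. The microglial and blood sums were above every shfLuc library in all 4 shPpp1r17 libraries, and in blood library 1 (181% of the shfLuc mean) was as high as library 3 (179%). The same held for the fibroblast sum and, by a narrow margin in library 4, for the mature myelin sum. The latter was 1579 to 1609 CPM in shfLuc and 1620 to 2838 CPM in shPpp1r17. Of 8 astrocyte genes Gfap (1.82) and S100b rose and Agt (-0.61) and Slc1a3 (-0.46) fell, and of 8 neuronal genes Tubb3 rose (0.38) and Syt1 (-0.37), Nefl (-0.39) and Eno2 fell. The neuronal sum overlapped between groups, at 4417 to 4495 CPM and 4357 to 4813 CPM. With the replicate block the calls of S100b, Tubb3 and Nefl were lost. Without shPpp1r17 libraries 2 and 3 edgeR called no gene of these lists, while the median log2 fold change was 0.74 for blood (0.99 with them) and 0.39 for microglia (0.60 with them). The part of these cell types in the Enpp6, Olig1 and Lhfpl3 values was not tested.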

How the data were processed

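Each library has 1 gene table in which the authors deposited, per the file headers, estimated counts of reads, TPM (scaled to effective length and library), length and effective length for 55487 Ensembl genes. RNA was isolated with a PicoPure kit and sequenced from SMARTer libraries, per the labels' protocols. Tools named without a version by the submitters' processing notes are bcl2fastq, DRAGEN, edgeR and limma. Genome build, annotation and strand handling: not given in the sources used here. Between 9.45% and 10.1% of the estimated counts were fractional, and they were rounded. Symbols came from an identifier table that matched 55141 genes, and unmatched genes took at most 0.0319% of reads.

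Sample titles gave the groups and replicate numbers. Genes were tested with edgeR 4.0.16 (R 4.3.3) by quasi-likelihood, with TMM factors, filterByExpr (count of 10, total of 15), group as the single term, and Benjamini-Hochberg adjustment over 17339 genes at 0.05. CPM values are TMM-scaled. Standard errors and 95% intervals were derived from the F statistic. Errors given for read numbers cover counting only. The members and gene lists were chosen with earlier results of these data known. Named genes were the 10 members, Ppp1r17, the 2 genes most like each member, and up to 3 genes per list with the smallest p. Other names were chosen after their values were seen. Chi-square per degree of freedom between libraries of 1 group was 7.48 to 41.1, so none looked like a repeat deposit.

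Alternatives were DESeq2 1.42.0, voom (limma 3.58.1) without and with quality weights, RLE factors or library totals as scaling, no filter or a mean of 1 CPM, offsets for effective length, limma on log2(TPM + 1) and log2(TPM + 0.1) at a mean TPM of at least 1, robust dispersion, a replicate block, and each library left out. Leaving out shPpp1r17 libraries 2 and 3 together was chosen after seeing the data. The fit was tested on simulated data with 200 changed genes. It recovered 38.8% of 1.5-fold, 64.2% of 2-fold and 90.9% of 4-fold changes, and 5.84% of its calls were false. A gene that did not pass may therefore still have changed. Sequence searches used GENCODE M21 3′ UTRs and RefSeq promoters with Python 3.11.15 and pandas 2.3.3.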

Additional observations from a re-analysis of the deposited data

How the results depend on the processing

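Over all genes, 1050 passed in the main comparison, 1925 with DESeq2, 1763 with limma voom and sample quality weights, 37 without shPpp1r17 libraries 2 and 3, and 0 to 1548 with each library left out. The count was 0 in edgeR without shfLuc 2 or shfLuc 3, where 3309 and 3146 genes had an unadjusted p under 0.05. On log2(TPM + 1) 297 genes were higher and 533 lower, against 588 and 462 in the main comparison. Of the 10 lineage genes 2 passed in the main comparison, 0 with effective length offsets or without shPpp1r17 libraries 2 and 3, 1 on log2(TPM + 1) or log2(TPM + 0.1), where Bmp4 and Enpp6 fell under the filter, and 1 with the replicate block. With each library left out 0 to 3 passed. Enpp6 was at 1.23 with effective length offsets, 1.02 without shPpp1r17 libraries 2 and 3, and 1.2 to 1.55 with 1 library left out. Lhfpl3 was at -0.34 with effective length offsets, -0.34 (adjusted p = 0.101) with the replicate block, -0.23 without shPpp1r17 libraries 2 and 3, and -0.41 to -0.30 with 1 library left out. Olig1 passed with DESeq2 (0.43) and quality weights (0.44), and ran from 0.32 to 0.50 with 1 library left out. These 2 were the only passes among 13 settings other than single omissions, and it passed in 1 of 8 single omissions. Signs turned for Bmp4 (-0.06) and C1ql1 (-0.64) without shPpp1r17 libraries 2 and 3, and for Cspg4 (0.03) with effective length offsets. With 1 library left out C1ql1 ran from -0.15 to 0.62 and Cspg4 from -0.10 to 0.11. The cause of these changes was not tested. Same-numbered libraries had deviations correlated at -0.12, 0.0368, -0.0174 and 0.186, within the range of -0.19 to 0.219 for differently numbered ones. So few pairs cannot show whether same-numbered libraries share a batch. With the replicate block 726 genes passed. Pdgfra, Neu4 and Gpr17 stayed above 0 and Olig2 at 0.00 or above, and none of the 4 passed under any alternative run. Of 378 list medians recomputed, 360 stayed within the spread between libraries of a group and 18 moved beyond it. That spread includes the distance of shPpp1r17 libraries 2 and 3 from libraries 1 and 4. Among those that moved were the BMP pathway on log2(TPM + 1) (-0.04) and log2(TPM + 0.1) (-0.08), against 0.05. The astrocyte median also moved, from 0.02 to -0.15 without shPpp1r17 libraries 2 and 3. Depth limits C1ql1, Bmp4 and Enpp6, with as few as 8, 6 and 15 reads in a library.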

Other observations

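Genes whose log2 CPM followed a lineage gene most closely over the 8 libraries were named among well-expressed genes as a description, with no p, and all share the same 8 libraries. For Enpp6 these were Rnf141 (Pearson r = 0.980) and Elof1 (r = 0.966), for Lhfpl3 Ncor1 (r = 0.990) and Rnf6 (r = 0.981), and for Olig1 Psmb5 (r = 0.975) and Polr1d (r = 0.974). None of the genes nearest to any of the 10 was another gene of the list. Candidates needed an average log2 CPM of at least 3, so Olig2, C1ql1, Bmp4 and Enpp6 could not appear among them. No lineage gene had a library far from the other 3 of its group by Dixon's criterion in 20 groups checked.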
